A study of Rattus norvegicus with 6 samples.

Results

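The proteasome genes are described here in rat bone marrow mesenchymal stem cells (BMSCs, stromal cells grown out of bone marrow) that were given ginsenoside Rb1, a saponin of ginseng, or the solvent DMSO. Members were all genes whose symbol, in upper or lower case, starts with Psm, a letter from a to g and a number, which gave 50 of 22062 rows of the table. Of these, 48 encode a subunit of the proteasome, an activator, an inhibitor or an assembly factor. The others were Psmc3ip, a cofactor of meiotic recombination, and Psme1-ps1, a pseudogene that may share reads with Psme1, and both were kept out of the counts and medians below. RNA was sequenced in 3 libraries of each group, after 24 h with Rb1 at 20 µM or with DMSO alone. The cells of both groups came from the marrow of 4-week-old Sprague–Dawley rats, for which no genetic change is named, and were used at passages 2 to 3. The dose, time, age and passage are those of the study's methods, the labels and the methods name different sexes, and no source used here says whether the libraries came from separate cultures or animals, so the p-values speak only to how much these libraries vary, and that variation may be technical.

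The proteasome breaks down proteins that carry ubiquitin chains. Its core is a barrel of stacked rings, in which the outer alpha rings form the gate and the inner beta rings carry the cutting sites of Psmb5, Psmb6 and Psmb7. A regulatory cap sits on the gate. Its ATPases (Psmc genes) unfold the substrate and its other subunits (most Psmd genes) bind and remove ubiquitin. Interferon-gamma induces the beta forms Psmb8, Psmb9 and Psmb10, which replace Psmb5, Psmb6 and Psmb7 in the immunoproteasome, and the activator made of Psme1 and Psme2. When proteasome activity falls short, the transcription factor NRF1 (gene Nfe2l1) is processed and raises proteasome subunit genes together through antioxidant response elements. In cells of the bone lineage, proteasome inhibitors are known to affect osteoblast differentiation.

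The deposited values are FPKM, fragments scaled for transcript length and for the depth of the library. The libraries held 8197154 to 14177061 fragments, and Rb1 replicate 1 was the shallowest. It also stood apart from the others of its group, with a mean correlation of 0.972 with them against 0.980 and 0.981 for the other Rb1 libraries, so counts are given with and without it. Col1a1 and the other 7 stromal markers in the table were expressed, and the macrophage markers were too, with Lyz2 at 2835 to 3729 FPKM. Of 10781 genes tested, 2 passed an adjusted p of 0.05. The median log2 difference over all tested genes was −0.07, Rb1 minus DMSO.

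Nearly all proteasome genes were well expressed in both groups. Of the 48, 46 were tested, having reached 1 FPKM or more in 3 or more of the 6 libraries. The tested genes comprised 7 core alpha subunits, 10 core beta subunits and 6 regulatory ATPases. The rest were 14 regulatory non-ATPase (Psmd) genes, 5 activators or inhibitors and 4 assembly chaperones of the core. Of the Psmd genes, Psmd5, Psmd9 and Psmd10 encode chaperones that assemble the cap and are no part of the finished one. The mean FPKM of the 46 genes had a median of 72.8, against 10.8 for all tested genes. It ran from 5.25 for Psmd10, an ankyrin-repeat chaperone of the cap, to 239.7 for Psma7. The lowest count behind any value was 14 fragments, for Psmd10 in DMSO replicate 1. The genes not tested were forms of other tissues. Psma8, the alpha subunit of the testis, was at 0 in 5 libraries and had 1 fragment in DMSO replicate 2, and Psmb11, the beta subunit of the thymic cortex, had 0 fragments in all 6. A count of 0 allows up to 3 fragments per library, from counting error only.

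**Figure D1:**
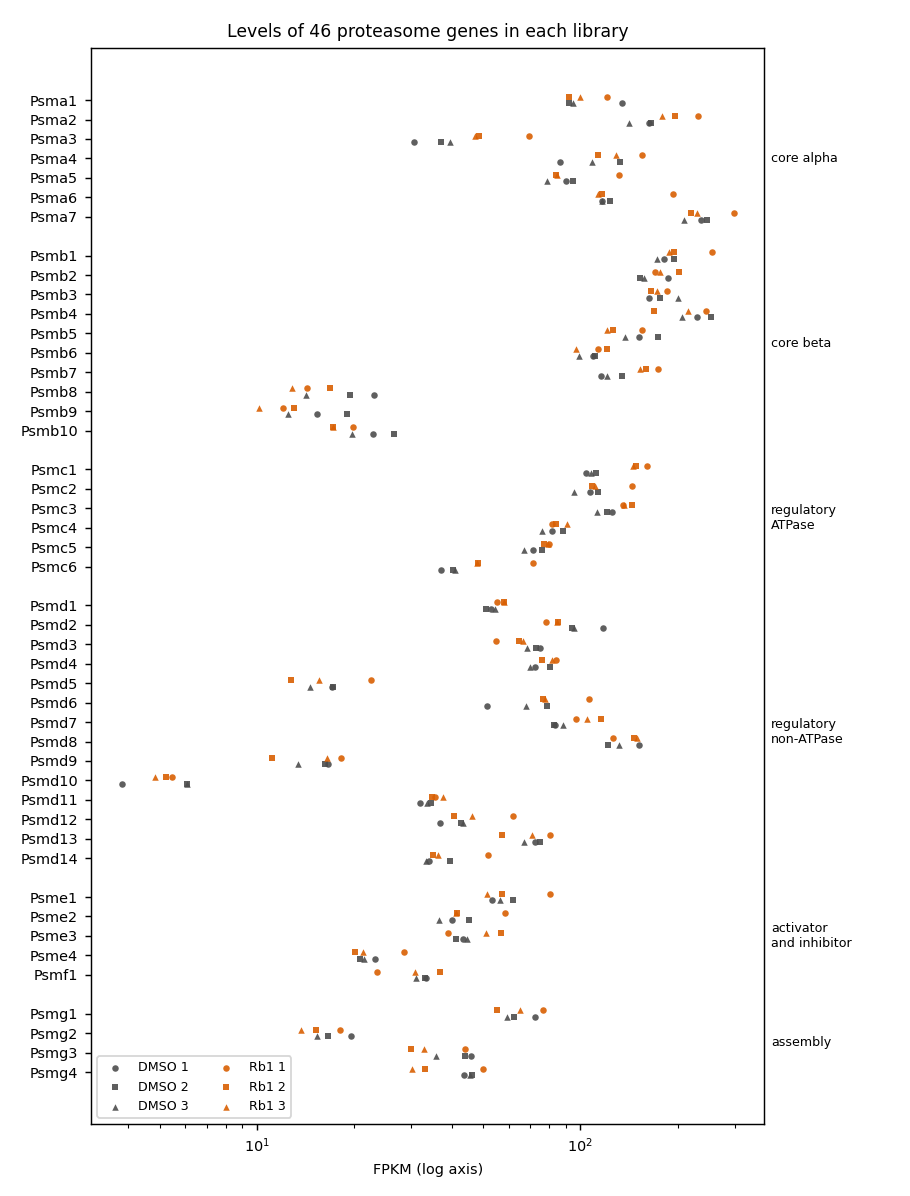
FPKM of the proteasome genes (log axis) in each library, by structural group, with Rb1 and DMSO libraries as separate points. Most core genes lie near 100 FPKM or above, while the inducible forms Psmb8, Psmb9 and Psmb10 lie between 10.1 and 26.6.

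The core genes were the most abundant. Alpha subunits ranged from 45.4 (Psma3) to 239.7 (Psma7) and the 7 standard beta subunits from 108 to 219 in mean FPKM over the 6 libraries. The cap genes were lower, with ATPases from 47.6 (Psmc6) to 129.7 (Psmc1) and Psmd genes from 5.25 (Psmd10) to 138 (Psmd8). The assembly chaperones Psmd5, Psmd9 and Psmd10 were the lowest Psmd genes, at 16.6, 15.3 and 5.25. The other Psmd genes ran from 34.7 (Psmd11) to 138. Over the 14 standard core genes, the order of levels was much the same in every library, with Spearman's rho between pairs of libraries from 0.78 to 0.96. These are correlations across genes, which are not independent replicates.

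No proteasome gene differed between Rb1 and DMSO at an adjusted p under 0.05 (limma, Benjamini-Hochberg over 10781 genes; 0.0186% of all tested genes did), and the lowest adjusted p was 0.117. At an unadjusted p under 0.05, 6 of the 46 were higher with Rb1, namely Psma2, Psma3, Psmb7, Psmc1, Psmc6 and Psmd7, and 0 were lower, against 8.27% higher and 14.6% lower (22.9% in either direction) over all tested genes. By limma with voom weights on recovered fragments, 0 passed adjustment, the same 6 were higher (8.17% of all genes) and 1, Psmd2, was lower (14.3%). By value alone, 30 were higher and 16 lower, where 41.0% of all tested genes were higher and 59.0% lower. The 3 Rb1 libraries all lay above the 3 DMSO libraries for 10 of the 46 (11.9% of all tested genes) and all below for Psmd2 and Psmd3 (20.3%). The median log2 difference of the 46 was 0.10, against −0.07 for all genes. With array weights, which give less weight to a library that stands apart, 1 proteasome gene passed the adjusted threshold, Psmc1 (adjusted p = 0.0373), among 800 of all genes. At an unadjusted p under 0.05, 6 of the 46 were then higher (11.5% of all genes) and 6 lower (18.0%), the lower ones being Psmb5, the inducible Psmb8, Psmb9 and Psmb10, and the chaperones Psmg3 and Psmg4. The median of the 46 was −0.02 under these weights and that of all genes was −0.05.

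The shift above the DMSO mean was largest in Rb1 replicate 1, where the median of the 46 was 0.17, against 0.0019 and 0.018 in the other Rb1 libraries. It held the highest value of the 6 for 24 of the 46 genes, against 27.3% of all tested genes. Without it, 24 of the 46 were higher by value (40.5% of all genes) and the median was 0.01. At an unadjusted p under 0.05, 6 were then higher (8.62% of all genes), with Psme3 in place of Psma2, and 4 lower (15.1%), the 4 being Psmb5, Psmb10, Psmg3 and Psmg4. Without DMSO replicate 1, 2 were higher, Psma3 and Psmc1 (4.85% of all genes), and 0 were lower (8.72%). Without DMSO replicate 3, 4 were higher, Psma3, Psmb7, Psmc1 and Psmd7 (6.54% of all genes), and 3 were lower, Psmb8, Psmb9 and Psmb10 (11.5%). Rb1 replicate 1 is also the shallowest library, and the part of its depth in these values was not tested.

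**Figure D2:**
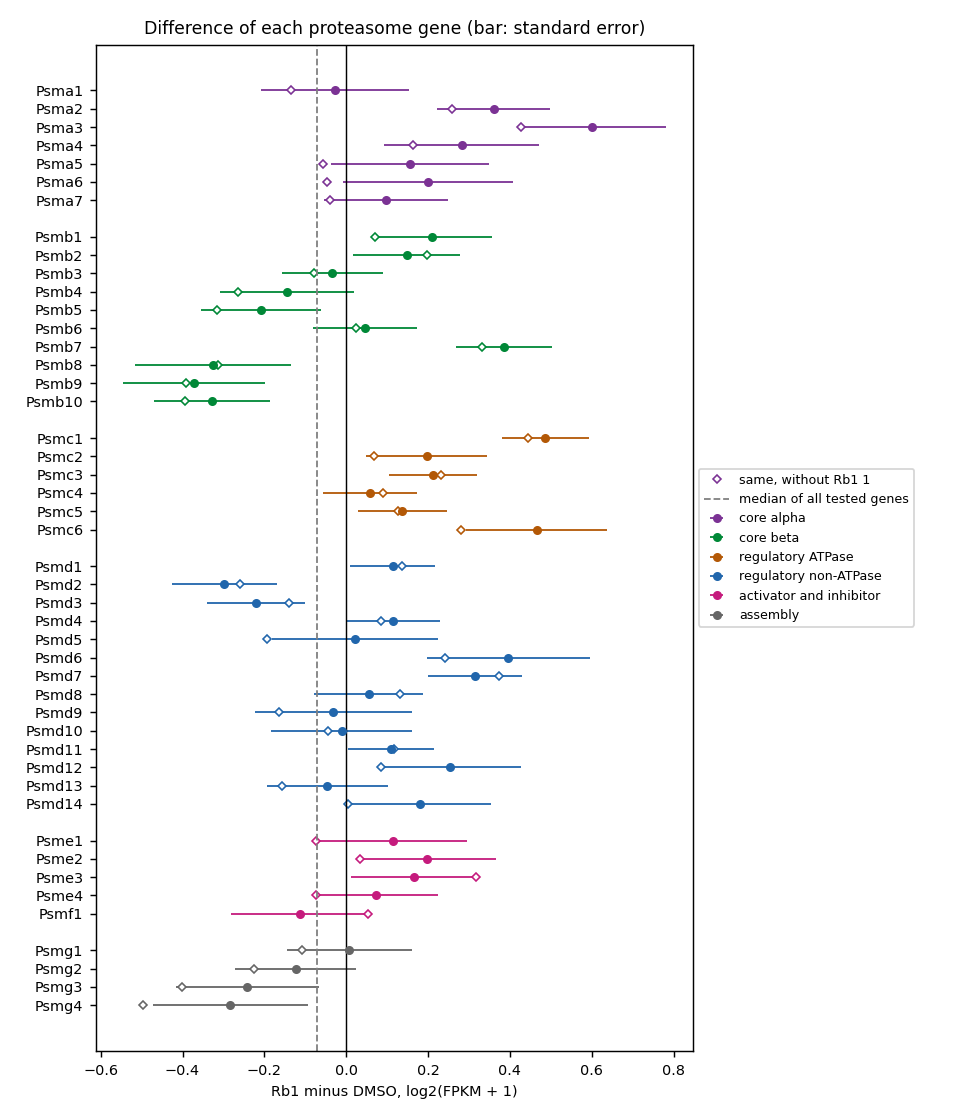
Log2 difference (Rb1 minus DMSO, log2 of FPKM + 1) of each tested proteasome gene with its standard error, by structural group. Open diamonds leave out Rb1 replicate 1 and the dashed line is the median of all tested genes. All 6 ATPases lie above 0, while all 3 inducible beta forms and 3 of the 4 assembly chaperones lie below it.

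The ATPase ring was the group with the most even direction. All 6 ATPases were higher by value with Rb1, with and without Rb1 replicate 1 (41.0% and 40.5% of all tested genes were). For Psmc1, Psmc3, Psmc5 and Psmc6 the Rb1 libraries lay above the DMSO libraries without overlap (11.9% of all tested genes). With Rb1 the summed FPKM of the 6 was 673, 611 and 611, and with DMSO it was 526, 551 and 499.9. The median log2 difference was 0.20, and 0.18 without Rb1 replicate 1. The test called 2 of 6 higher at an unadjusted p under 0.05 (8.27% of all tested genes) and 0 after adjustment.

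Psmc1 encodes the ATPase that helps to open the gate of the core, and its locus lies on chromosome 6 at 124123227 to 124135658 in the coordinates of the table, whose rat build is not named. Its FPKM was 161, 148 and 146 with Rb1 and 104, 111 and 108 with DMSO. All Rb1 values lay above all DMSO values, with a wide gap between the groups. The log2 difference was 0.49 (SE 0.11), with an adjusted p of 0.117, and 0.44 without Rb1 replicate 1. Psmc6, another ATPase of the ring, was at 71.1, 48.2 and 47.9 with Rb1 and 37.0, 40.4 and 40.9 with DMSO. Its groups did not overlap either, and Rb1 replicate 1 was far above the other libraries. Its log2 difference was 0.47 (SE 0.17, adjusted p = 0.179), and 0.28 without that library. Psmc3 and Psmc5 differed by 0.21 and 0.14, Psmc2 by 0.20 and Psmc4 by 0.057, with adjusted p-values of 0.278 to 0.784.

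Among the alpha subunits, 6 of 7 were higher by value (41.0% of all tested genes), with a median of 0.20. That direction depended on 1 library, since without Rb1 replicate 1 only 3 of 7 were higher (40.5% of all genes) and the median was −0.04. The difference lay in Psma5, Psma6 and Psma7, whose differences turned below 0 without that library. Psma6 was at 193, 116 and 114 with Rb1 and 117, 123 and 117 with DMSO, so that 1 value stood well above 5 similar ones.

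Psma3 and Psma2 differed from the rest of the alpha ring in that their groups did not overlap. Psma3 is an alpha subunit encoded on chromosome 6 at 93423001 to 93444240 in the table. Its FPKM was 69.2, 48.7 and 47.3 with Rb1 and 30.5, 37.0 and 39.5 with DMSO. The log2 difference of 0.60 (SE 0.18, adjusted p = 0.136) was the highest of the 46 genes, and it was 0.43 without Rb1 replicate 1. Psma2 was at 232, 196 and 179 with Rb1 and 163, 165 and 142 with DMSO. Its log2 difference was 0.36 (SE 0.14, adjusted p = 0.186), and 0.26 without Rb1 replicate 1, where its unadjusted p was no longer under 0.05. Psma7, the most abundant proteasome gene, was at 298, 219 and 229 with Rb1 and 237, 247 and 209 with DMSO, and the groups overlapped.

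The standard beta subunits moved little as a group, with a median of 0.05 over 7 genes. Psmb7, the trypsin-like cutting subunit, on chromosome 3 at 22811926 to 22952063, was the only beta gene with an unadjusted p under 0.05 in the test on all 6 libraries. Its FPKM was 174, 159 and 152 with Rb1 and 116, 135 and 121 with DMSO. The groups did not overlap, and the log2 difference was 0.39 (SE 0.12, adjusted p = 0.140). Psmb7 overlaps Nek6 on the opposite strand in the table, and no source used here says whether counting used the strand. Nek6 itself differed by −0.12. Psmb5, the chymotrypsin-like subunit and the main target of proteasome inhibitors, was at 155, 126 and 121 with Rb1 and 152, 174 and 137 with DMSO, and its groups overlapped (−0.21, adjusted p = 0.420). Psmb6, the caspase-like subunit, was at 114, 121 and 96.9 with Rb1 and 109.7, 111 and 98.8 with DMSO, also with overlap (0.047, adjusted p = 0.844). Psmb4, the most abundant beta gene, which has no cutting site of its own, was at 245, 168 and 215 with Rb1 and 229, 253 and 206 with DMSO.

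The inducible forms were all lower by value with Rb1, as were 59.0% of all tested genes, and none passed the test. Psmb8, the inducible partner of Psmb5, was at 14.3, 16.8 and 12.8 with Rb1 and 23.0, 19.3 and 14.1 with DMSO (−0.33, SE 0.19, adjusted p = 0.338). Psmb9, the partner of Psmb6, was at 12.004, 13.1 and 10.1 with Rb1 and 15.3, 19.0 and 12.5 with DMSO (−0.37, SE 0.17, adjusted p = 0.249). Psmb10, the partner of Psmb7, was at 19.9, 17.2 and 17.2 with Rb1 and 22.8, 26.6 and 19.7 with DMSO (−0.33, SE 0.14, adjusted p = 0.223). In each of the 3 genes, the highest Rb1 value exceeded the lowest DMSO value, so the groups overlapped. Psmb8 and Psmb9 lie 11767 bases apart on chromosome 20 in the table. In bulk samples, fewer cells of a type and less RNA per cell cannot be told apart.

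Because each inducible form takes the place of a standard one, its share of the pair was taken within each library, so that the scaling between libraries largely cancels. For Psmb10 and Psmb7, the inducible form made up 10.2%, 9.74% and 10.1% of the pair's FPKM with Rb1 and 16.5%, 16.5% and 14.0% with DMSO. The 2 groups did not overlap, at 10.04% ± 0.266 with Rb1 and 15.7% ± 1.43 with DMSO (SD, n = 3). Both genes enter this share, Psmb7 being higher by 0.39 and Psmb10 lower by 0.33 with Rb1, and Psmb10 by itself overlapped between groups. The overlap of the Psmb7 locus with Nek6, given above, also bears on it. The log2 ratio, taken on FPKM + 1, differed by −0.71, and the exact two-sided permutation test gave p = 0.1, the smallest p that 3 against 3 libraries allow (0.15 adjusted over the 3 pairs). For Psmb9 and Psmb6, the share was 9.55%, 9.77% and 9.45% with Rb1 and 12.2%, 14.6% and 11.2% with DMSO. These groups did not overlap either (log2 ratio difference −0.42, exact permutation p = 0.1, adjusted 0.15). For Psmb8 and Psmb5, the share was 8.46%, 11.8% and 9.55% with Rb1 and 13.1%, 9.99% and 9.32% with DMSO. Here the groups overlapped (−0.12, exact permutation p = 0.6), and the difference turned above 0 when Rb1 replicate 1 (0.00086) or DMSO replicate 1 (0.041) was left out. For Psmb10 and Psmb7 it stayed between −0.80 and −0.67 whichever library was left out, and for Psmb9 and Psmb6 between −0.51 and −0.30.

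**Figure D3:**
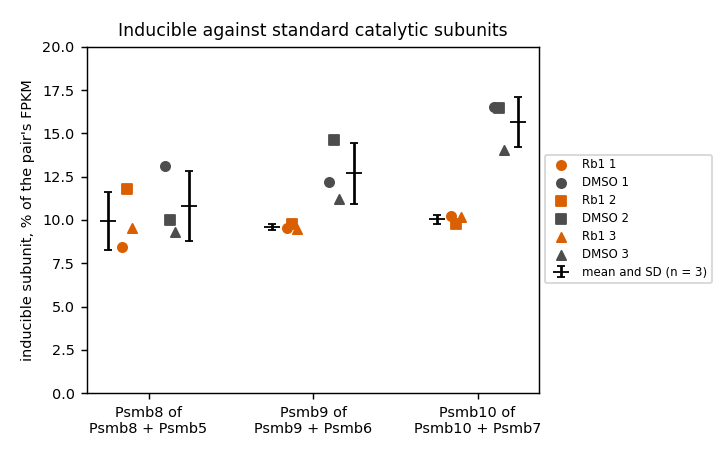
Share of the inducible form in the FPKM of its catalytic pair (percent, y axis) in each library, with the mean and SD of each group (n = 3). The Rb1 libraries lie between 9.74% and 10.2% for Psmb10 and Psmb7, below all DMSO libraries (14.0% to 16.5%), while the groups overlap for Psmb8 and Psmb5.

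The sequences before the start sites of the 3 pairs are shown because the members of each pair differed in the motifs found there. The windows come from RefSeq (GRCr8) and run from 100 bases before the start to the first 10 transcribed bases, on the gene's strand. Capitals mark an antioxidant response element core (TGACNNNGC), a CCAAT box (CCAAT), an ETS core (CCGGAAG) or an interferon-stimulated element, on either strand.
Psmb5 (chr15:32047370-32047479, minus strand): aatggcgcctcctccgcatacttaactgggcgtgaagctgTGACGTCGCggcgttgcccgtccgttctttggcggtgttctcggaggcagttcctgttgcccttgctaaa
Psmb8 (chr20:4657022-4657131, minus strand): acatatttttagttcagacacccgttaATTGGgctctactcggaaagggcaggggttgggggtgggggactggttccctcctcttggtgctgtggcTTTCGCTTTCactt
Psmb6 (chr10:55737788-55737897, plus strand): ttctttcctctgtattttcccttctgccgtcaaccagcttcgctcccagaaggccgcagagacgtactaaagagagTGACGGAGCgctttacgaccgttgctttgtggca
Psmb9 (chr20:4668900-4669009, plus strand): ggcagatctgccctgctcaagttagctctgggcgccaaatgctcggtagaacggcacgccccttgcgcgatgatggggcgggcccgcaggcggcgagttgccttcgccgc
Psmb7 (chr3:42827461-42827570, minus strand): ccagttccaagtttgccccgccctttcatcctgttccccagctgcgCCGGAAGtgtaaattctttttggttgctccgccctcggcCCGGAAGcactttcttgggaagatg
Psmb10 (chr19:50743283-50743392, minus strand): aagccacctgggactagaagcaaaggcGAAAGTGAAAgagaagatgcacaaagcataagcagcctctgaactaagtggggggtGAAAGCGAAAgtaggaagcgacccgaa
The capitals in Psmb5 and Psmb6 are antioxidant response element cores, those in Psmb7 are ETS cores, and Psmb10 holds a pair of interferon-stimulated elements. Psmb8 holds an inverted CCAAT box and an interferon-stimulated element on the other strand at its start site. Psmb9 holds no match in this stretch. A match is a description of the letters and not a site or a cause.

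Listed genes of interferon signaling, antigen presentation and the interferon response did not share 1 direction. Of 20 listed genes, 17 were tested, 8 were higher and 9 lower by value (median −0.03), and 0 passed adjustment. At an unadjusted p under 0.05, 1 was higher (8.27% of all tested genes) and 3 lower (14.6%). The same 4 genes were called without Rb1 replicate 1, when 5 were higher (40.5% of all genes) and 12 lower by value. Tapbp, which loads peptides on class I molecules, was at 16.2, 23.2 and 20.9 with Rb1 and 34.5, 31.6 and 30.5 with DMSO (−0.67, adjusted p = 0.118). B2m, the light chain of class I, was at 1216, 1476 and 1295 with Rb1 and 939, 983 and 993 with DMSO (0.45, adjusted p = 0.121). Irf1, a transcription factor that induces Psmb9, was at 9.37, 7.08 and 7.77 with Rb1 and 9.45, 11.3 and 10.2 with DMSO (−0.32, adjusted p = 0.214), and the interferon-gamma receptor gene Ifngr1 differed by −0.29 (adjusted p = 0.181). In each of these 4 genes, named for their low p, the groups did not overlap. B2m lay above (11.9% of all tested genes) and the other 3 below (20.3%).

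Immune cells express the inducible forms at high levels, so their markers are given beside these values. Of 9 macrophage markers tested, 3 were higher and 6 lower by value (median −0.12), with Lyz2 higher at an unadjusted p under 0.05 (0.27, adjusted p = 0.196). Their summed FPKM was 4050 to 4463 with Rb1 and 3675 to 3718 with DMSO, and most of it was Lyz2. The other 8 summed to 733, 761 and 746 with Rb1 and 833, 809.8 and 840.5 with DMSO, which is lower in each Rb1 library. Without Rb1 replicate 1, 1 macrophage marker was higher and 8 lower by value, and Lyz2 lost its call. All 8 stromal markers tested were lower by value (median −0.32), against 59.0% of all tested genes. At an unadjusted p under 0.05, 4 were lower (14.6% of all tested genes). Their sum over the 8 was 2919, 4886 and 4713 with Rb1 and 6153, 5372 and 5761 with DMSO. Rb1 replicate 1 was the lowest of these. Most of each sum was Col1a1, at 1976, 3829 and 3560 with Rb1 and 4953, 4218 and 4505 with DMSO. Without Rb1 replicate 1, Thy1 and Cd44 were higher by value and the other 6 lower. Of these 6, 5 had an unadjusted p under 0.05 (15.1% of all tested genes). Col1a1 then differed by −0.30 rather than −0.60. The 3 endothelial markers tested, Tie1, Esam and Egfl7, were lower with Rb1. All had an unadjusted p under 0.05 (14.6% of all tested genes), also without Rb1 replicate 1 (15.1%). The summed level over the 7 in the table was 21.3 to 23.3 FPKM with Rb1 and 32.2 to 49.6 with DMSO. Most of it was Egfl7, at 14.9 to 39.9 over the 6 libraries. Cdh5, Tek, Kdr and Emcn were under the filter, at 0 to 0.592 FPKM. Whether endothelial cells were present was not tested. Of 5 T and B cell markers, 0 passed the filter, and Cd3e, Cd3d and Ms4a1 were at 0 in all libraries. The part of these cell types in the inducible subunits was not tested.

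The non-ATPase (Psmd) genes went both ways, with 9 of 14 higher and 5 lower by value and a median of 0.08. Over all tested genes, 41.0% were higher. The assembly chaperone Psmd5 was among the higher Psmd genes, and the chaperones Psmd9 and Psmd10 were among the lower ones. Psmd7, the partner of the deubiquitinase Psmd14 in the lid of the cap, was at 97.1, 115 and 104 with Rb1 and 83.2, 82.6 and 88.1 with DMSO. The groups did not overlap, and the log2 difference was 0.31 (SE 0.11, adjusted p = 0.177). It was 0.37 without Rb1 replicate 1, which was its lowest Rb1 value. Psmd1 and Psmd11 also had groups that did not overlap, at smaller differences of 0.11 and 0.11. The deubiquitinase Psmd14 was at 51.9, 34.9 and 36.3 with Rb1 and 33.9, 39.5 and 33.4 with DMSO, with overlap.

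Psmd2 and Psmd3 were the only proteasome genes whose Rb1 libraries all lay below the DMSO libraries. Psmd2, with Psmd1 the largest scaffold subunit of the cap and a docking site for ubiquitin receptors, was at 78.5, 85.0 and 84.8 with Rb1 and 118, 94.1 and 95.6 with DMSO. Its log2 difference was −0.30 (SE 0.13, adjusted p = 0.221), and −0.26 without Rb1 replicate 1. Psmd3, a scaffold subunit of the lid, was at 55.0, 64.4 and 66.4 with Rb1 and 75.2, 73.0 and 68.3 with DMSO (−0.22, SE 0.12, adjusted p = 0.309). Psmd1 and Psmd2, both in the base of the cap, thus had differences of opposite sign, 0.11 and −0.30, and neither passed the test. Psmd8, the most abundant of the group, was at 126, 146 and 149 with Rb1 and 152, 122 and 132 with DMSO. Psmd10, the least abundant, was at 5.47, 5.24 and 4.83 with Rb1 and 3.81, 6.06 and 6.09 with DMSO. Both overlapped between groups.

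The activators and the inhibitor overlapped between groups in all 5 genes. Psme1 and Psme2, which form the interferon-inducible activator ring and lie 2332 bases apart on chromosome 15 in the table, were both measured well above the filter. Psme1 was at 80.7, 57.1 and 51.6 with Rb1 and 53.1, 62.1 and 56.6 with DMSO. Psme2 was at 58.6, 41.6 and 41.4 with Rb1 and 40.0, 45.3 and 36.6 with DMSO. In both genes Rb1 replicate 1 was the highest of the 6 libraries, and the differences of 0.11 and 0.20 became −0.073 and 0.034 without it. Over all 6 libraries they were thus not lower by value, as Psmb8, Psmb9 and Psmb10 were, and this contrast was not tested. Psme3, the nuclear activator, was at 39.1, 56.9 and 51.1 with Rb1 and 43.4, 41.1 and 44.7 with DMSO, with Rb1 replicate 1 the lowest library. Without that library its difference was 0.32 rather than 0.17, with an unadjusted p under 0.05. Psme4, the large nuclear activator, was at 28.4, 20.1 and 21.3 with Rb1 and 23.1, 20.9 and 21.5 with DMSO. Psmf1, an inhibitor of the core, was at 23.5, 36.8 and 30.9 with Rb1 and 33.3, 33.1 and 31.0 with DMSO (−0.11, adjusted p = 0.703), and without Rb1 replicate 1 its difference was 0.053.

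Of the 4 chaperones that build the alpha ring, 3 were lower by value (59.0% of all tested genes) and the median was −0.18. Psmg4 was at 49.9, 33.1 and 30.2 with Rb1 and 43.5, 46.1 and 45.7 with DMSO. Rb1 replicate 1 was here the highest of all 6, while the other Rb1 libraries were the lowest. Its log2 difference was −0.28 (SE 0.19, adjusted p = 0.395), and −0.50 without that library. Its partner Psmg3 had its lowest values in the same Rb1 libraries, at 43.9, 29.9 and 32.7 with Rb1 and 45.8, 44.0 and 35.8 with DMSO (−0.24, and −0.40 without Rb1 replicate 1). Psmg2 was at 18.1, 15.3 and 13.7 with Rb1 and 19.6, 16.6 and 15.3 with DMSO (−0.12), and its partner Psmg1 at 76.4, 55.2 and 64.9 with Rb1 and 72.5, 62.5 and 59.3 with DMSO (0.0078). Without Rb1 replicate 1 all 4 chaperones were lower by value, with a median of −0.31.

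**Figure D4:**
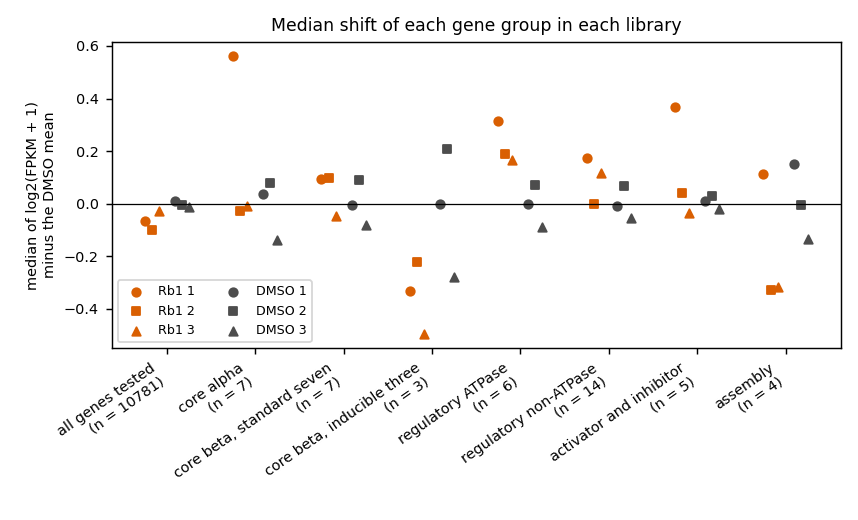
Median log2 difference of each structural group from the mean of the DMSO libraries, in each library. Rb1 replicate 1 lies highest for the alpha subunits (0.56, against −0.03 and −0.01 for the other Rb1 libraries), while the 3 Rb1 libraries lie close together for the ATPases (0.32, 0.19 and 0.17).

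Proteins that work with the proteasome but carry other names gave a split picture. Of 16 partners tested, 9 were higher and 7 lower by value (median 0.03), and 0 passed adjustment. At an unadjusted p under 0.05, 4 were higher (8.27% of all tested genes) and 1 lower (14.6%). Without Rb1 replicate 1 only Rad23b kept its call, and 7 partners were higher and 9 lower by value (median −0.08). Rad23b, a shuttle that carries ubiquitinated proteins to the cap, was at 131, 142 and 139 with Rb1 and 86.3, 92.2 and 107 with DMSO (0.53, SE 0.12, adjusted p = 0.118). Usp14, a deubiquitinase of the cap, was at 50.97, 36.2 and 37.3 with Rb1 and 23.6, 32.6 and 33.2 with DMSO (0.46, adjusted p = 0.205, and 0.31 without Rb1 replicate 1). Sem1, a small lid subunit that the table lists as Shfm1, was at 169.7, 156 and 138 with Rb1 and 131, 129 and 97.1 with DMSO (0.38, adjusted p = 0.211). Txnl1, a thioredoxin bound to the cap, differed by 0.31 (adjusted p = 0.211). Ubqln4, another shuttle, was at 14.4, 16.8 and 17.5 with Rb1 and 19.9, 19.6 and 20.03 with DMSO (−0.28, adjusted p = 0.213). In each of the 5 the groups did not overlap, 4 above (11.9% of all tested genes) and Ubqln4 below (20.3%), as was Ubqln2.

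The listed genes of the NRF1 route, with Nfe2l1 itself and dimer partners of NRF1 among them, were tested in 15 of 16 cases. By value, 6 were higher and 9 lower (median −0.02). At an unadjusted p under 0.05, 0 were higher (8.27% of all tested genes) and 3 lower (14.6%), and 0 passed adjustment. Without Rb1 replicate 1 this became 2 higher, Faf2 (0.41) and Maff (0.42), and 2 lower, Ddi2 and Syvn1 (8.62% and 15.1% of all genes). By value, 9 were then higher and 6 lower (median 0.04). Nfe2l1, which encodes NRF1, was at 19.0, 30.8 and 34.0 with Rb1 and 35.8, 27.5 and 33.4 with DMSO, with overlap (−0.23, adjusted p = 0.554). Rb1 replicate 1 was its lowest library, and without it the difference was 0.013. Ddi2, the protease that cuts NRF1 into its active form, was at 5.09, 4.74 and 6.13 with Rb1 and 7.03, 8.47 and 6.74 with DMSO (−0.41, SE 0.14, adjusted p = 0.156). Syvn1, the ubiquitin ligase that acts on NRF1 at the endoplasmic reticulum, was at 7.39, 10.5 and 10.1 with Rb1 and 13.5, 15.4 and 13.4 with DMSO (−0.56, SE 0.15, adjusted p = 0.124). The Rb1 libraries lay below all DMSO libraries for Ddi2, Syvn1, and Vcp and Nploc4 of the same list (20.3% of all tested genes). They lay above all DMSO libraries for Derl2 and Ubxn4 of that list (11.9%). Mafg, a dimer partner of NRF1, was at 5.31, 6.22 and 7.56 with Rb1 and 10.5, 8.17 and 7.46 with DMSO (−0.40, adjusted p = 0.216), and Derl2, of the channel that moves proteins out of the endoplasmic reticulum, was at 64.3, 45.6 and 49.6 with Rb1 and 33.8, 43.8 and 43.7 with DMSO (0.38, adjusted p = 0.236).

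Upstream of the proteasome, 5 ubiquitin and E1 genes were tested, 2 higher and 3 lower by value (median −0.04), and 1 higher and 4 lower without Rb1 replicate 1. Uba6, an E1 enzyme that activates ubiquitin, was at 8.05, 8.34 and 8.37 with Rb1 and 5.34, 5.33 and 6.30 with DMSO (0.48, SE 0.11, adjusted p = 0.118). Its Rb1 libraries all lay above the DMSO libraries (11.9% of all tested genes). The main E1 gene Uba1 was at 54.7, 66.8 and 75.6 with Rb1 and 77.3, 74.1 and 74.8 with DMSO (−0.21). Rps27a, a fusion of ubiquitin and a ribosomal protein, was at 2009, 956 and 982 with Rb1 and 1039, 1327 and 1019 with DMSO, with Rb1 replicate 1 alone above the others. Without that library its difference was −0.21 rather than 0.14.

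The promoters of Psma3, Psmc1 and Psmc6 were read in the same way as those of the beta pairs, and are shown because these genes had the 3 highest log2 differences of the 46.
Psma3 (chr6:95219649-95219758, plus strand): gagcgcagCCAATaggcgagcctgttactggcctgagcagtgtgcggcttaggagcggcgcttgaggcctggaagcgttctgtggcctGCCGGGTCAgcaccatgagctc
Psmc1 (chr6:125122397-125122506, plus strand): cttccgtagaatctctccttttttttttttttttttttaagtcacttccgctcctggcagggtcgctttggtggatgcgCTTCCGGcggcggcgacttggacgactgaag
Psmc6 (chr15:21022214-21022323, plus strand): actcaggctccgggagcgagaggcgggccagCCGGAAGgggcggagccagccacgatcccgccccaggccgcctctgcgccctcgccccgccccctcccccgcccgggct
The capitals are an upstream CCAAT box and an antioxidant response element core on the other strand in Psma3, and ETS cores in Psmc1 and Psmc6. RefSeq windows of 300 bases, from 250 before to 50 after the start, were matched for 43 of the 48 genes and not for Psma7, Psmb11, Psmd6, Psmd12 and Psmd14. Both strands were searched. The ETS core was present in 15 of the 43 windows (34.9%), against 8.75% of all 33469 windows and 19.3% of the 8552 windows of tested genes. The interferon-stimulated element was present in 7 (16.3%, against 3.92% and 2.97%), namely Psma4, Psmb3, Psmb8, Psmb10, Psmd7, Psme2 and Psmg4. The antioxidant response element core was present in 8 (18.6%, against 12.1% and 14.8%) and the CCAAT box in 21 (48.8%, against 37.5% and 38.1%). In Psmb2 a CCAAT box overlaps the antioxidant response element core. Of the 6 genes higher at an unadjusted p under 0.05, Psmb7, Psmc1, Psmc6 and Psmd7 held an ETS core and Psma2 and Psma3 did not. In Psmd7 it began at transcribed base 28. The other windows with an ETS core were of genes not called, and of these Psmb4, Psmd13 and Psmg3 were lower by value. A link between the motif and the differences was not tested.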

How the data were processed

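RNA-seq was made from 3 Rb1 and 3 DMSO libraries with rRNA depletion. CASAVA 1.8 and HISAT2 stand in the submitters' processing notes, the latter without a version, beside a human build that does not match the rat table. The counting program, the rat build and the annotation are not given in the sources used here. The authors deposited FPKM values for 22062 rows. A deposited signal, headed count, was read as the fragment count times 1 factor per library. Dividing by that factor gave whole values, within 0.05, for 99.3% to 99.6% of rows, and the sums are the depths given above. No fold changes or p-values were in the table.

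FPKM values of rows sharing a symbol were summed (233 symbols), giving 21797 genes, and genes with 1 FPKM or more in 3 or more libraries were kept. limma 3.58.1 in R 4.3.3 was fitted (lmFit, eBayes) to log2(FPKM + 1) with the group as the only term, and p-values were adjusted over 10781 genes by Benjamini-Hochberg. A fold change on this scale understates the change of low genes. The fit was tested on simulated data. Pair ratios were compared with an exact permutation test over libraries. No pairing by replicate number is stated in the sources used here, and the fit had no block. Alternatives were a fit blocked on replicate number, the pseudocount, filter, scaling, variance model, library weights, unsummed rows, leaving out each library, and, added after seeing the data, voom and a transcript length correction.

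Genes were named by rule: those past the adjusted threshold, the 5 lowest p-values per direction, the catalytic, activator, inhibitor and chaperone genes, the highest and lowest level of each group, genes under the filter, and up to 4 genes per list. Other genes were named after their values were seen. A few listed genes are not reported here. The members and lists were chosen with earlier results of these data known. Not matched in the table were Paaf1, Ddi1, Ubb, Col1a2, Lepr, Itgam and Pecam1.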

Additional observations from a re-analysis of the deposited data

How the results depend on the processing

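The counts here cover all tested matches of the naming pattern, of which Psme1-ps1 without Rb1 replicate 3 was the only called gene outside the proteasome. The count of genes higher at an unadjusted p under 0.05 was 6 (8.27% of all tested genes). It ran from 2 to 6 when 1 library was left out, the 2 being without DMSO replicate 1 (4.85%). It was 8 with median scaling and 7 without a filter or with a transcript length correction. The count of lower genes was 0 (14.6% of all tested genes). It ran from 0 to 4 when 1 library was left out, the 4 being without Rb1 replicate 1 (15.1%). It was 1 with quantile normalization or voom (14.3% with voom) and 6 with array weights (18.0%). It was 2 without a filter, with a mean FPKM of at least 5, with trend and robust options or with a transcript length correction. For the scalings, filters, trend and robust options and length correction, the share of all genes called was not computed. Array weights also gave 1 gene past the adjusted threshold, among 800 of all genes, and a median of −0.017. Median scaling raised the ATPase median to 0.29 and the non-ATPase median to 0.16, and quantile and median scaling moved the median of all genes from −0.07 to 0.00. The cause of these changes was not tested. The Psmb8 to Psmb5 log2 ratio ran from −0.26 to 0.041 when 1 library was left out, turning sign at 0.00086 without Rb1 replicate 1.

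Of 27 named genes tested, 17 kept their direction under every alternative in which they were tested, 18 for each but Psme1-ps1, which fell under the mean FPKM filter of 5. With array weights, Psma7 became −0.019, Psmb6 −0.054, Psme1 −0.086, Psme4 −0.023 and Psmg1 −0.036. With quantile normalization and median scaling, Psmd10 became 0.087 and 0.059. When 1 library was left out, the lowest and highest values of the genes that turned were −0.039 and 0.18 for Psma7, −0.27 and 0.0025 for Psmb4, −0.019 and 0.14 for Psmb6, −0.023 and 0.11 for Psmc3ip, −0.016 and 0.14 for Psmd8, −0.20 and 0.083 for Psmd10, −0.073 and 0.24 for Psme1, −0.074 and 0.17 for Psme4, −0.26 and 0.053 for Psmf1, and −0.11 and 0.12 for Psmg1.

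No pairing of the libraries by replicate number is stated in the sources used here. The deviations of same-numbered libraries from their group means had correlations of −0.0038, −0.042 and 0.16. These cannot decide whether libraries were paired, since deviations from a mean of 3 libraries are tied to one another. With the number as a block, 5 genes were higher and 1 was lower at an unadjusted p under 0.05. After adjustment 0 passed, as was so over all tested genes, and the share of all genes called without adjustment was not computed. The sign-flip p of the pair ratios was then 1.0 for Psmb8 and Psmb5 and 0.25 for the others, the smallest that 3 pairs allow. The planned quasi-likelihood count test was not run, since a check did not accept the divided values as whole read counts. They were whole, within 0.05, for 99.3% to 99.6% of rows and not for the rest.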

Other observations

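Some proteasome genes have near copies in the table. RGD1564425, a copy of Psmb3, had 1 to 4 fragments per library, and Psme1-ps1 had 15 to 39. LOC100911238, a copy of the assembly factor Pomp, was at 43.5 ± 4.05 FPKM with Rb1 and 42.6 ± 2.37 with DMSO (SD, n = 3), so that the level of Pomp is uncertain. Psmc3ip, which shares the Psmc3 name but acts in meiotic recombination, was at 5.74, 6.57 and 5.95 FPKM with Rb1 and 5.13, 6.35 and 6.04 with DMSO, and the groups overlapped. Besides Psmb7 and Nek6, the loci of Psmd1 and Psme1 overlap Htr2b and Emc9 on the opposite strand, and that of Psme3 overlaps Aoc3 and G6pc on the same strand, so that their reads may not be fully separated. Aoc3 differed by −0.29 on the log2 scale where Psme3 differed by 0.17.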
